A study of Mus musculus with 18 samples.

Results

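Replication-dependent histone genes, named Hist1h, Hist2h, Hist3h and Hist4h in the mouse, encode the linker histone H1 and the core histones H2A, H2B, H3 and H4 that package DNA into nucleosomes. The genes described here were chosen by name: all protein-coding autosomal genes of the GENCODE M1 annotation (assembly NCBIM37, which is mm9) whose symbol begins with one of these 4 prefixes, 67 of 21418 protein-coding autosomal genes. They lie in the Hist1 cluster on chromosome 13 (55 genes), the Hist2 cluster on chromosome 3 (9 genes), the Hist3 pair on chromosome 11 (2 genes) and at Hist4h4 on chromosome 6 (1 gene). By type they are 6 H1, 19 H2A, 18 H2B, 11 H3 and 13 H4 genes. Another 3 loci with such symbols are annotated as pseudogenes and were left out. Nearly all of the genes, 61 of 67, have a single exon.

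The data are FAIRE-seq peaks of liver from male mice that ate a diet rich in fat and sucrose (HF/HS). FAIRE isolates DNA that is free of nucleosomes after formaldehyde fixation, and sequencing of this DNA marks accessible chromatin as peaks. The groups were 9 strains: BXH2/TyJ and BXH19/TyJ, recombinant strains derived from C57BL/6J and C3H/HeJ, and the inbred strains A/J, AKR/J, BALB/cJ, CBA/J, DBA/2J, C3H/HeJ and C57BL/6J, with 2 animals each and 18 samples in all. The diet was given for 8 weeks from 8 weeks of age and was the same in every group, so that no comparison with a control diet can be made here. The tissue is whole liver, a mixture of cell types, and fewer accessible cells cannot be told apart from lower accessibility per cell.

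In each strain the authors merged both animals into 1 list of reproducible peaks, so that values have no replicate error and no test between strains was possible. The lists held 26769 (DBA/2J) to 30613 (CBA/J) peaks, with median widths of 376 to 542 bp, and the read depth behind a peak is not part of them. Merging the 9 lists gave 51957 sites. A site belongs to a histone gene when it overlaps the gene or lies within 1 kb of it, which held for 52 sites. A site is called in a strain when a peak of that strain overlaps it by at least 1 bp. A site without a call may be open but too weak for the peak caller. Signal was compared as the percentile of a peak within its own list, where 100 is the strongest peak, because the lists share no scale. Shares carry 95% Clopper-Pearson limits, which reflect counting alone and treat sites next to each other as independent. Of the listed hepatocyte markers (Alb, Apoa1, Apob, Ttr, Hnf4a, Cyp2e1 and F2), 7 of 7 had a site, in 4 to 7 of 7 per strain with A/J lowest at 4. Of 5 markers of other liver cells, Cd68 (macrophages), Pecam1 (endothelium) and Col1a1 (collagen-producing cells) had a site, while Ptprc and Krt19 had none. Of 3 genes of other tissues, Ins2 had a site in all 9 strains, and Neurod1 and Myh6 had none. The median percentile of Ins2 over strains was 71.5. This was above the medians of Alb (11.4), F2, Apob, Ttr and Cyp2e1 and below those of Apoa1 (72.5) and Hnf4a (81.2).

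Replication-dependent histone genes are transcribed mainly during S phase, when new nucleosomes are assembled, and adult hepatocytes rarely divide. Their transcripts end in a conserved stem-loop instead of a poly(A) tail. H2A and H2B genes often stand head to head and share 1 stretch of promoter DNA between their starts, in which a CCAAT box, a TATA box and an octamer element are typical. The following stretches are shown because they differ in the number of strains with a peak over them. Whether their letters bear on the calls was not tested. They run from the base after one start to the base before the other, on the plus strand of mm9, and capitals mark on either strand the TATA box (TATAAA), the CCAAT box (CCAAT) and the octamer (ATTTGCAT). A peak overlapped the first in 8 strains, the second in 9, the third in 4 and the last in none.
Hist2h2ac/Hist2h2be, chr3:96024804-96025043, 240 bp: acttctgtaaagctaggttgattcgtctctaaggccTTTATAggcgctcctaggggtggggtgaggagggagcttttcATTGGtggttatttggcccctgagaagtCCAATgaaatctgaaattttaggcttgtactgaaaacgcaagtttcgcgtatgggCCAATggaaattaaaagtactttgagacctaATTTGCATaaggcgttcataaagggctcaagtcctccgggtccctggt
Hist1h2ac/Hist1h2bc, chr13:23775818-23776067, 250 bp: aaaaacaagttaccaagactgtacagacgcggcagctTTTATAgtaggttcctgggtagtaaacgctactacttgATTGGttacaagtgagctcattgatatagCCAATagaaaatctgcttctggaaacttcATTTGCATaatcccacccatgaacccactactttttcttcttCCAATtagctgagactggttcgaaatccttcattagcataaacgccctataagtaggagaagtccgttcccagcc
Hist1h2ah/Hist1h2bk, chr13:22127513-22127689, 177 bp: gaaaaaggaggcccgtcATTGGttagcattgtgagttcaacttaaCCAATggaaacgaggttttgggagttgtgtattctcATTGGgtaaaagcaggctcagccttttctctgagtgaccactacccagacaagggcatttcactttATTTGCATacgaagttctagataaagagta
Hist1h2bq/Hist1h2ao, chr13:21902069-21902235, 167 bp: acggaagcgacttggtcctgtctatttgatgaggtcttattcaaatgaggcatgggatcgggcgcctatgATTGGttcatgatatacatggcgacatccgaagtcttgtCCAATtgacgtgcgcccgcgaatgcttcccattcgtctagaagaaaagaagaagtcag

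For contrast, the 200 bp before the starts of an H4 and an H1 gene that were called in all 9 strains are given on the strand of the gene, with the same letters in capitals (TATAAA on the gene strand only).
Hist1h4h, plus strand, chr13:23622719-23622918: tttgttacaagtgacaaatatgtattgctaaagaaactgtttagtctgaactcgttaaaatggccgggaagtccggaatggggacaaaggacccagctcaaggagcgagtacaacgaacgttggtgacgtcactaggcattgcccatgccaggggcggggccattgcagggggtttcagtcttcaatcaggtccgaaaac
Hist1h1a, plus strand, chr13:23855337-23855536: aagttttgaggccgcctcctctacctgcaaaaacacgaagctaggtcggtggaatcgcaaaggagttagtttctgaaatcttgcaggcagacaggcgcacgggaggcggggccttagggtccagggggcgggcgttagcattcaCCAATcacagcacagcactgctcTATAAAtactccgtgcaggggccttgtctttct

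The first question was how much of the gene family lies in accessible liver chromatin. Of the 67 histone genes, 51 (76.1%, interval 64.1 to 85.7%) had a site in at least 1 strain, against 66.1% of all protein-coding autosomal genes, a share inside that interval. A site covered the start of 44 histone genes (65.7%, interval 53.1 to 76.8%), compared with 52.1% of all genes, which lies just under the interval. Histone genes are short and single-exon, and the 2733 single-exon protein-coding genes as a whole had a site in 16.4%, or in 15.0% of those 2672 that are not histone genes. Within the Hist1 cluster, without the distant Hist1h2al, 11 of 48 other protein-coding genes (22.9%) had a site. How the short gene models bear on these shares was not tested.

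The members were also counted by type and by place. A site was found at 12 of 13 H4 genes, 5 of 6 H1 genes, 8 of 11 H3 genes, 13 of 18 H2B genes and 13 of 19 H2A genes. The 1 kb window can assign 1 site to several neighbouring genes. A site covered the start of 11 of 13 H4, 5 of 6 H1 and 12 of 18 H2B genes. It did so at 11 of 19 H2A and 5 of 11 H3 genes. Over all protein-coding autosomal genes 66.1% had a site and 52.1% had a site over the start. The Hist2, Hist3 and Hist4 genes had a site without exception (9 of 9, 2 of 2 and 1 of 1). In Hist1 the group of genes between 23622919 and 24026720 on chromosome 13 had a site at 27 of 31 genes. The other group, between 21807632 and 22135545, had a site at 12 of 23, and Hist1h2al, which stands alone at 51298057 to 51298434, had none. The counts of H2A, of H2B and of the group with 12 of 23 include Hist1h2bq, Hist1h2ao, Hist1h2ap and Hist1h2br. Their accessibility cannot be told from the lists, as described below.

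In all, 16 genes had no site in any strain. They were the H2A genes Hist1h2aa, Hist1h2ai, Hist1h2ak, Hist1h2al, Hist1h2ao and Hist1h2ap, the H2B genes Hist1h2ba, Hist1h2bl, Hist1h2bn, Hist1h2bq and Hist1h2br, the H3 genes Hist1h3d, Hist1h3h and Hist1h3i, the H4 gene Hist1h4n, and Hist1h1t. Hist1h1t encodes the testis linker histone, and Hist1h2aa and Hist1h2ba the testis forms of H2A and H2B, so that the 3 genes known for testis expression were all among the uncalled ones.

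The study kept reads with a single location in the genome, so copies of histone DNA were looked for. Around each start, from 200 bp before to 200 bp after it, the share of 170-mers (170 bp was the average fragment length) with a single exact copy in the assembly was counted. It was 100% at 52 of 67 histone genes, of which 44 (84.6%) had a site. At 11 genes it lay between 50% and 100%, and 7 of these had a site. At Hist1h2bq, Hist1h2ao, Hist1h2ap and Hist1h2br it was 0%, and none had a site. These 4 genes form 2 head-to-head pairs whose 167 bp promoters are exact reverse complements of each other, so that the last of the paired promoters printed above stands for both. Over all protein-coding autosomal genes 2.79% had less than 50% single-copy 170-mers at the start, compared with 4 of 67 histone genes (5.97%). Whether these 4 starts are accessible cannot be told from the lists. Over the gene and 1 kb on each side, the share of single-copy 170-mers was 32.8% at Hist1h4n, which had no site. In that window it was 22.3% at Hist1h4m, which was called in A/J only. How this bears on their calls was not tested. Copies with mismatches were not counted.

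A merged site can be wider than the peak of a single strain. Of 236 calls at the 37 sites that cover a histone start, 232 had a peak over such a start itself, and the 4 others were A/J at Hist3h2a and at Hist1h2bb, and DBA/2J at Hist1h1c and at Hist2h2ac/Hist2h2be. A peak over the start itself in all 9 strains was found at 11 genes, namely 6 H4, 2 H1, 2 H3 and 1 H2B gene.

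The plot of percentiles by site and strain shows the 52 sites grouped by the histone start that they cover. Most H4 and H1 rows are filled in nearly all strains, while many rows over H2A and H2B starts are empty on the right.

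**Figure D1:**
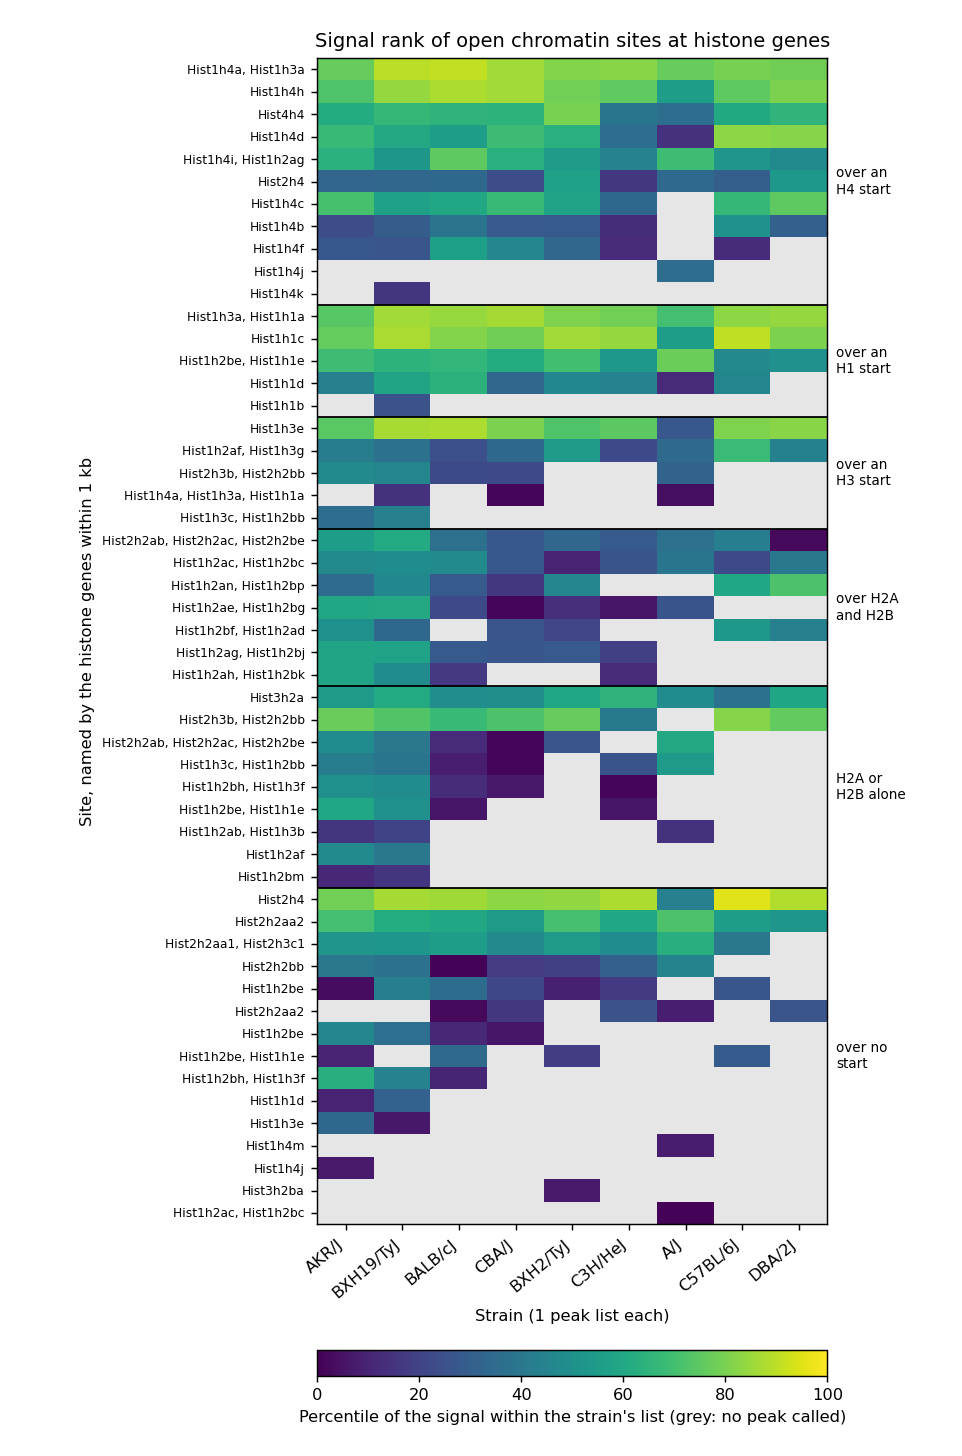
Heat map of the 52 sites (rows, named by the histone genes within 1 kb and grouped by the start they cover) in the 9 strains (columns, 1 peak list each). Colour gives the percentile of the signal within the strain's list from 0 to 100 and grey means no peak. AKR/J and BXH19/TyJ are filled in 44 and 45 rows, C57BL/6J and DBA/2J in 26 and 22.

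The H4 genes, which encode the core histone most conserved in evolution, held 3 of the 5 sites with the highest mean percentile, and the H1 genes the other two. Of 11 sites over an H4 start, 6 were called in all 9 strains. The site at Hist1h4a (chr13:23852688-23853656) had percentiles with a lowest value of 76.6 in AKR/J, a median of 81.4 and a highest value of 90.8 in BALB/cJ, and Hist1h3a lies within 1 kb of it. At Hist1h4h (chr13:23622644-23623887) the percentiles had a lowest value of 56.2 in A/J, a median of 78.6 and a highest value of 87.8 in BALB/cJ. Both sites were thus above the 50th percentile of every list. Hist1h4d had a lowest percentile of 14.3 in A/J, a median of 63.6 and a highest of 82.8 in C57BL/6J. Hist1h4i had percentiles of 44.5 to 75.1, and Hist4h4, the lone gene of chromosome 6, 36.0 to 79.7. A/J was the lowest list at Hist1h4h, Hist1h4d and Hist4h4.

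Hist1h4c was called in 8 strains at percentiles of 33.8 to 75.3 and Hist1h4b in 8 strains at 12.9 to 51.0, and A/J was the strain without a peak at both. Hist1h4f was called in 7 strains, not in A/J or DBA/2J. Hist1h4j had a site over its start in A/J only, at percentile 35.6, and another site in AKR/J only, at 7.31. Hist1h4k was called in BXH19/TyJ only, at 15.4, and Hist1h4m in A/J only, at 7.81 and beyond its start. Hist1h4j, Hist1h4k, Hist1h4m and Hist1h4n, which had no site, all lie in the Hist1 group with fewer sites.

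Hist2h4 had a pair of sites in all 9 strains. The one over its start (chr3:96066804-96068044) had a lowest percentile of 16.1, a median of 33.2 and a highest of 57.1. The other (chr3:96066057-96066514), in the 3' untranslated part of the annotated single exon, had a lowest value of 43.6 in A/J, a median of 85.7 and a highest of 95.1 in C57BL/6J. The stronger site of Hist2h4 was therefore not the one over its start, in each of the 9 lists.

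Linker histones of the H1 type bind DNA where it enters and leaves the nucleosome. Hist1h1a (chr13:23855244-23856126) was called in every strain at a lowest percentile of 70.0 in A/J, a median of 83.1 and a highest of 86.5 in CBA/J. Hist1h1c (chr13:23830345-23832180) was called in every strain too, at a lowest percentile of 55.8 in A/J, a median of 81.4 and a highest of 90.5 in C57BL/6J. Its site was 1836 bp wide, the widest of the 52, for which the median was 557 bp and the narrowest 205 bp. Hist1h1e was called in all 9 strains at percentiles of 47.0 to 77.5, here with A/J highest. Hist1h1d was called at its start in 8 strains, at 11.9 to 64.4, and not in DBA/2J. Hist1h1b had a peak in BXH19/TyJ only, at 25.6, and the testis gene Hist1h1t had none.

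The 5 sites over an H3 start were of both kinds. Hist1h3e was called in every strain at a lowest percentile of 27.3 in A/J, a median of 80.3 and a highest of 87.7 in BALB/cJ, and the next lowest value was 72.6 in BXH2/TyJ. Hist1h3g was called in every strain at lower ranks of 21.9 to 68.0. Hist2h3b was called in 5 strains at 22.2 to 48.0, Hist1h3a in 3 strains at 1.17 to 14.6, and Hist1h3c in AKR/J at 36.0 and in BXH19/TyJ at 43.5 alone.

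H2A and H2B form a dimer in the nucleosome, and 24 of their genes stood in 12 head-to-head pairs with 167 to 305 bp between the starts. A site covered both starts of 7 pairs. The 5 others, Hist1h2bl/Hist1h2ai, Hist1h2ak/Hist1h2bn, Hist1h2bq/Hist1h2ao, Hist1h2ap/Hist1h2br and Hist1h2ba/Hist1h2aa, were not called in any strain. The pairs were called in 7 of 12 cases in AKR/J and BXH19/TyJ, 6 in BALB/cJ, CBA/J and BXH2/TyJ, 5 in C3H/HeJ, 4 in C57BL/6J and DBA/2J and 3 in A/J. In DBA/2J a peak overlapped the stretch between the starts in 3 of these 4 cases.

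Hist2h2ac/Hist2h2be and Hist1h2ac/Hist1h2bc, whose promoters are printed above, were the pairs whose site was called in all 9 strains. At Hist2h2ac/Hist2h2be a peak overlapped the stretch between the starts in 8 strains, with a lowest percentile of 27.1 in CBA/J, a median of 36.9 and a highest of 61.1 in BXH19/TyJ. The DBA/2J peak of that site, at percentile 2.72, overlapped neither start nor the stretch between them. At Hist1h2ac/Hist1h2bc, with a peak over that stretch in 9 strains, the lowest was 10.1 in BXH2/TyJ, the median 38.9 and the highest 48.7 in BXH19/TyJ. In each strain both pairs ranked below Hist1h4h and Hist1h1a, whose lowest percentiles were 56.2 and 70.0.

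Hist1h2ah/Hist1h2bk, also printed above, had percentiles of 58.3 in AKR/J, 48.2 in BXH19/TyJ, 16.5 in BALB/cJ and 12.1 in C3H/HeJ and was not called in the other 5 strains. Hist1h2ae/Hist1h2bg had 60.2 in BXH19/TyJ and 59.8 in AKR/J, then 26.1 in A/J, 22.2 in BALB/cJ, 13.5 in BXH2/TyJ, 5.92 in C3H/HeJ and 1.86 in CBA/J, and no call in C57BL/6J or DBA/2J. Hist1h2ag/Hist1h2bj had 58.4 in AKR/J and 57.6 in BXH19/TyJ, and 19.1 to 28.3 in 4 other strains. In each of these 3 pairs AKR/J and BXH19/TyJ held the highest 2 ranks. Hist1h2an/Hist1h2bp followed another order, with 72.1 in DBA/2J, 59.5 in C57BL/6J, 46.6 in BXH19/TyJ, 46.3 in BXH2/TyJ, 34.8 in AKR/J, 28.1 in BALB/cJ and 16.4 in CBA/J and no call in A/J or C3H/HeJ. Hist1h2bf/Hist1h2ad was highest in C57BL/6J at 53.1 and AKR/J at 50.1 and not called in A/J, BALB/cJ or C3H/HeJ.

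The 5 sites with the largest SD of the percentile between strains, with uncalled strains set to 0, were all within 1 kb of an H2A or H2B gene, and 4 of them covered an H2A or H2B start. The largest was the site over the start of Hist2h2bb, with an SD of 26.4. It had a median of 74.4 and a highest percentile of 81.8 in C57BL/6J over 8 strains and no peak in A/J. Hist1h2an/Hist1h2bp followed with 25.2 and Hist1h2ae/Hist1h2bg with 24.0. A site over the annotated start of Hist1h2be, a gene model of 37383 bp that begins beside Hist1h1e, had an SD of 23.7, with 59.7 in AKR/J, 50.2 in BXH19/TyJ, 5.86 in C3H/HeJ and 5.82 in BALB/cJ. A site inside the single exon of Hist1h3f, within 1 kb of Hist1h2bh, had an SD of 23.7 as well, with 62.8 in AKR/J, 44.3 in BXH19/TyJ and 10.3 in BALB/cJ. The median SD was 14.4 over the 52 histone sites and 11.1 over all merged sites. The remaining sites called in a single strain were weak ones beyond a start, at Hist3h2ba in BXH2/TyJ (percentile 7.15) and at Hist1h2bc in A/J (0.82).

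Across strains, 16 of the 52 sites (30.8%, interval 18.7 to 45.1%) were called in all 9 strains, beside 26.6% of all merged sites and 31.1% of sites at protein-coding genes. Their median percentiles were 33.2 to 85.7. In 1 strain only were 7 sites (13.5%, interval 5.59 to 25.8%), beside 26.5% of all merged sites, which lies just above the interval. No histone site was among the 2539 most variable sites, to which 4.87% of merged sites belong, nor among the 2539 most common sites, to which 4.89% belong. A count of 0 of 52 allows a share of up to 6.85%, so that both backgrounds are within counting error. Both lists were chosen by the authors in the 7 inbred strains of these same data.

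The share of histone sites called ranged from 42.3 to 86.5% between strains, and that of all merged sites from 46.7 to 56.9%. BXH19/TyJ had 45 of 52 called (86.5%, interval 74.2 to 94.4%), against 55.4% of all merged sites. AKR/J had 44 (84.6%, interval 71.9 to 93.1%), against 54.3%. BALB/cJ followed with 37 (71.2%, interval 56.9 to 82.9%), against 56.4%. In these 3 strains the interval lay above the value for all sites, in BALB/cJ barely. CBA/J had 35 called (67.3%), against 56.9% of all sites. BXH2/TyJ and C3H/HeJ had 31 each (59.6%), against 54.8% and 56.1% of all sites. A/J had 29 (55.8%), against 54.5%. C57BL/6J had 26 (interval 35.8 to 64.2%), against 54.9%, and DBA/2J 22 (42.3%, interval 28.7 to 56.8%), against 46.7%. For these 6 strains the value for all sites lay inside the interval. At sites near protein-coding genes alone the shares were 57.2% in BXH19/TyJ, 55.2% in AKR/J, 55.7% in C57BL/6J and 49.1% in DBA/2J.

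**Figure D2:**
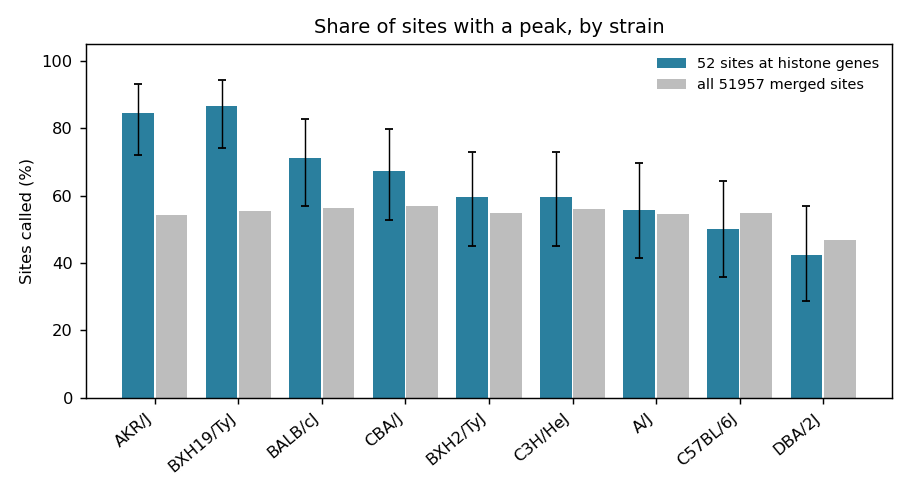
Percent of sites with a peak in each strain, for the 52 sites at histone genes (blue, with 95% Clopper-Pearson intervals as bars) and for all 51957 merged sites (grey). The grey bars lie between 46.7 and 56.9%, the blue bars between 42.3% in DBA/2J and 86.5% in BXH19/TyJ.

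The rank of the called histone sites did not follow their number. The median percentile over called histone sites was 62.2 in DBA/2J, 54.4 in C57BL/6J and 54.0 in BXH2/TyJ, each above the median of all sites in that list (52.4, 51.7 and 51.6). It was 50.1 in AKR/J and 48.1 in BXH19/TyJ, close to 51.1 and 51.2 for all sites. In BALB/cJ, A/J, C3H/HeJ and CBA/J it was 38.5, 37.0, 33.8 and 33.1, below the 50.6 to 51.2 of all sites. These medians depended on the weaker peaks. Among the 20000 strongest peaks of each list, ranked anew, the median was 51.1 in CBA/J, beside 50.6 for all sites there, and 31.4 in BXH19/TyJ, beside 51.1.

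The calls were also counted by the start that a site covers. A site over an H4 start was called in 7 of 11 cases in A/J, 8 in DBA/2J, 10 in BXH19/TyJ and 9 in each other strain. The 9 sites over a lone H2A or H2B start were called 9 times in both AKR/J and BXH19/TyJ, 6 times in BALB/cJ, 5 in CBA/J and C3H/HeJ, 4 in A/J, 3 in BXH2/TyJ and 2 in C57BL/6J and DBA/2J. The 5 sites over an H3 start were called 5 times in BXH19/TyJ, 4 in AKR/J, A/J and CBA/J, 3 in BALB/cJ and 2 in each of the others. The 15 sites over no histone start were called 11 times in AKR/J, 9 in BXH19/TyJ and BALB/cJ, 7 in A/J, CBA/J and BXH2/TyJ, 6 in C3H/HeJ, 5 in C57BL/6J and 3 in DBA/2J. Of the 22 sites by which AKR/J exceeded DBA/2J, 10 thus came from H2A and H2B starts, 8 from sites over no start, 2 from H3 and 1 each from H1 and H4.

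**Figure D3:**
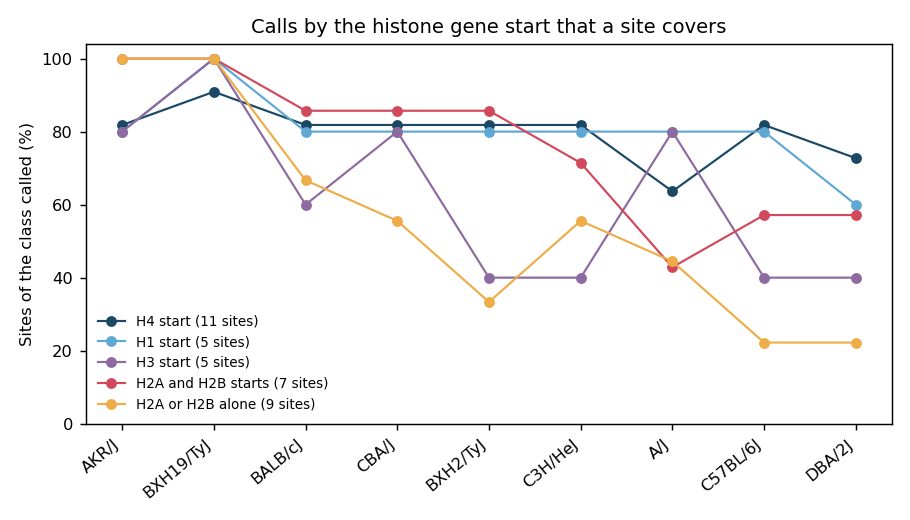
Percent of the sites of a class that were called (vertical axis) in each strain (horizontal axis), 1 line for each kind of histone start that the site covers, with the number of sites in the legend. The line of the 11 H4 sites stays between 7 and 10 sites, while that of the 9 sites at a lone H2A or H2B start drops to 2 in C57BL/6J and DBA/2J.

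After these values had been seen, the sites called in AKR/J and BXH19/TyJ but in neither C57BL/6J nor DBA/2J were counted. There were 17 of 52 (32.7%, interval 20.3 to 47.1%), beside 4.13% of all merged sites. The reverse pattern was found at 0 of 52, beside 1.85%, and 5 sites (9.62%) were called in AKR/J and BXH19/TyJ and no other strain, beside 1.24%. Since the strains were picked for these counts, they are a description. The 17 sites covered an H2A or H2B start in 10 of 16 such sites, an H3 start in 2 of 5 and no start in 5 of 15. They included 0 of the 16 sites over an H1 or H4 start. They lay on chromosome 13 in 14 cases and on chromosome 3 in 3. Their percentiles had a lowest value of 9.47, a median of 48.0 and a highest value of 62.8 in AKR/J, and 6.52, 39.97 and 60.2 in BXH19/TyJ. Of the other strains, BALB/cJ was called at 11 of them, CBA/J at 8, C3H/HeJ at 7, A/J at 6 and BXH2/TyJ at 4. The median GC content of the 17 sites was 45.8%, compared with 54.1% for the 16 histone sites called in all 9 strains, 50.6% for all 2147 merged sites with the same pattern and 53.9% for all merged sites. The mean GC content of all peaks was 55.1% in BXH19/TyJ and 54.8% in AKR/J, and 55.3% in C57BL/6J and 56.6% in DBA/2J. The part of GC content in these calls was not tested.

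BXH19/TyJ derives from C57BL/6J and C3H/HeJ, and its calls were set beside those of its parents. Of 18 histone sites called in neither parent, BXH19/TyJ was called at 13 and BXH2/TyJ at 2. Of the 16895 merged sites called in neither parent, BXH19/TyJ was called at 2493 and BXH2/TyJ at 3315. Taken as a share of all 52 histone sites, the 13 sites of BXH19/TyJ have an interval of 14.0 to 38.9%, beside 4.8% of all merged sites. The 2 sites of BXH2/TyJ are 3.85% of the 52, beside 6.38% of all merged sites. Of 8 sites called in C3H/HeJ and not C57BL/6J, BXH19/TyJ was called at 7 and BXH2/TyJ at 3, beside 47.3% and 44.4% of all such merged sites. Of 3 sites called in C57BL/6J and not C3H/HeJ, BXH19/TyJ was called at 2 and BXH2/TyJ at 3, beside 33.6% and 32.4%. Both were called at 23 of the 23 sites shared by the parents, beside 93.9% and 89.9%. The study aligned reads of the recombinant strains to mm9 and to a C3H/HeJ version of it, and those of the inbred strains to a version of their own. This difference, and the parental origin of each segment in BXH19/TyJ, was not tested.

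The position of the peak summit, the point of highest signal, was measured from the gene start at the 44 histone genes with a covered start. Taking the median over strains for each gene, 41 of 44 summits lay upstream, at a median of -92.5 bp, compared with -37.0 bp for 11125 protein-coding genes. By type the medians were -117.5 bp for H2B, -107.5 bp for H2A, -82.0 bp for H4, -61.0 bp for H1 and -41.0 bp for H3 genes. In a head-to-head pair the same summit was counted for each start that its peak covered. A summit between the starts lies upstream of both by the layout of the pair. How the pairs bear on these medians was not tested. At the 12 head-to-head pairs of H2A and H2B, 47 peaks overlapped the stretch between the starts, and 33 of them (70.2%) had their summit in it. In Hist1h2ah/Hist1h2bk the summit was in that stretch in 4 of 4 strains, within 23.0 bp of its middle. Of the 67 gene models, 9 begin at the first base of the coding sequence, so that their distances are counted from there.

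A/J stood apart here. In A/J 7 of 21 histone summits (33.3%) lay upstream of the start and the median was 74.0 bp downstream. In the other 8 strains the share upstream was 72.4 to 97.5% and the median lay between -105.5 bp in AKR/J and -85.0 bp in BXH2/TyJ. At the 20 histone genes with a covered start in A/J and in another strain, the A/J summit lay further downstream than the median of the others at 17, by a median of 140.0 bp. Over all protein-coding genes A/J was shifted by a median of 8.0 bp.

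Hist1h4d had its summit at 94.0 bp in A/J and at -130.0 to -116.0 bp in the other 8 strains. Hist1h1d had it at 166.0 bp in A/J and at -64.0 to -46.0 bp in 7 others, and Hist2h3b at 74.0 bp in A/J and -39.0 to -13.0 bp in 4 others. A/J did not overlap the others at any of these 3 genes. At Hist1h4h and Hist1h4i it lay upstream in A/J too, at -57.0 and -82.0 bp, near the other strains. The shift rested on weaker peaks in part: among the 20000 strongest peaks of each list, 13 histone starts were covered in A/J, the median summit was at -37.0 bp and 7 of 13 were upstream. The shift against the other strains was then 37.8 bp, with A/J further downstream at 8 of 12 genes.

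**Figure D4:**
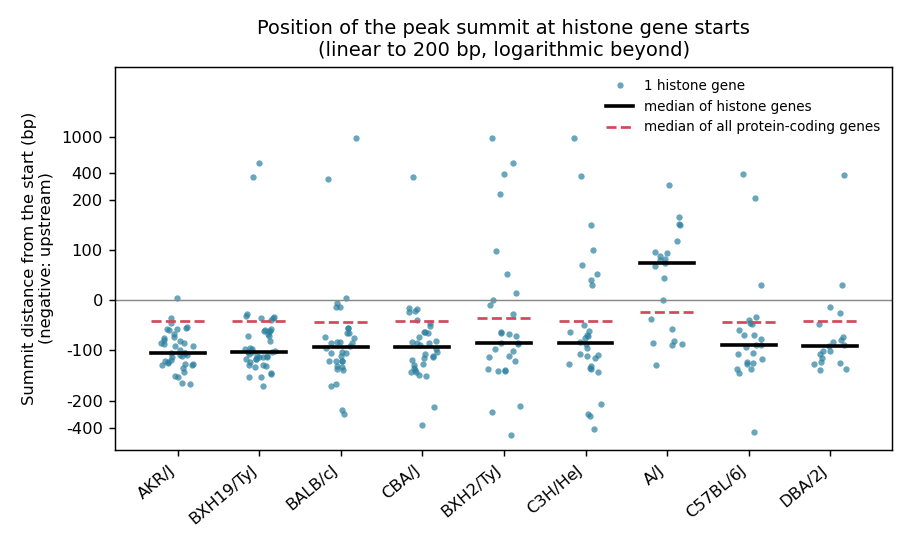
Distance of the peak summit from the gene start in bp (vertical axis, negative upstream, linear to 200 bp and logarithmic beyond) in each strain (horizontal axis). Each point is 1 histone gene, black lines are their medians and dashed red lines the medians of all protein-coding genes. The A/J median is at 74.0 bp, all others between -105.5 and -85.0 bp.

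Base composition changes sharply at these starts. In histone genes the median GC content was 44.5% in the 200 bp before the start and 61.0% in the first 200 bp of the gene, and it rose at 65 of 67 genes by a median of 14.5 percentage points. Over all protein-coding genes it was 55.5% and 60.0%, with a median rise of 4.0 points. The A/J list had the highest mean GC content of its peaks, 60.1%, against 54.8 to 57.3% in the other lists. The part of GC content in the A/J summits was not tested.

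The promoters shared letters that the choice by name did not use. In the 200 bp before the start, CCAAT on either strand was present in 57 of 67 histone genes (85.1%), against 30.3% of all protein-coding promoters of that length. All 37 H2A and H2B genes and all 6 H1 genes held it, as did 10 of 11 H3 genes, but only 4 of 13 H4 genes. TATAAA on the gene strand was present in 26 (38.8%), against 7.01%. The octamer ATTTGCAT on either strand was present in 15 (22.4%), against 1.36%, and these were 7 H2A and 8 H2B genes and no gene of another type. None of these motifs contains another. Starts in the 12 head-to-head pairs of H2A and H2B lie 167 to 305 bp apart. The 200 bp windows of a pair therefore overlap, and an element on either strand can count for both genes. Both genes of a pair can also share 1 site. Counts of genes with a motif or a site are thus not counts of separate promoters. Among H2A and H2B genes, 13 of 15 with the octamer had a site, and so did 13 of 22 without it. A peak over the start itself in all 9 strains was found at 1 of the 15 (Hist1h2bc) and at 0 of the 22. Sites were found at 20 of 26 genes with TATAAA and 31 of 41 without. The histone stem-loop was found within 300 bp before to 100 bp after the annotated end of 37 of 67 histone genes and of no other protein-coding gene, or in 50 of 67 when searched from the start to 100 bp past the end. A match of letters is not evidence of a bound factor.

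Genes known to act at the histone clusters were read in the same lists. All 12 listed genes of the histone locus body and of histone RNA processing were called in 9 of 9 strains. Among them, Npat, the coactivator of histone transcription, had percentiles of 95.2 to 99.6, and Slbp, which binds the stem-loop, 92.8 to 98.6. The lowest medians of the 12 were those of Cpsf2 (36.4, percentiles 22.2 to 73.9) and Coil (58.6, percentiles 15.2 to 80.3). The share of all protein-coding genes called in all 9 strains was not counted, so the counts of these lists stand without it. The median over the 12 genes was 92.5, and over the 51 histone genes with a site 38.9. Each gene took its highest site in a strain, so that longer genes can draw on more sites than the short histone genes. How gene length bears on these medians was not tested. Of the replication-independent histone genes, 10 of 13 found by name had a site and 6 were called in all 9 strains. H3f3b (variant H3.3) had percentiles of 76.2 to 99.8 and H2afz (variant H2A.Z) 92.9 to 99.7. Other members ranked lower or varied more. H3f3a had 26.9 to 73.9 and H2afy 0.06 to 94.6, each in 8 strains and not in DBA/2J. The oocyte and testis genes H1foo, H1fnt and Hils1 had none, H1fx was called in BXH19/TyJ only and H2afy2 in A/J only. All 13 proliferation genes had a site and 11 were called in all 9 strains. Mki67 was called in 6 strains, not in AKR/J, C57BL/6J or DBA/2J, and Top2a in 7, not in C57BL/6J or DBA/2J. By strain, all 13 were called in A/J, BALB/cJ, C3H/HeJ, CBA/J, BXH2/TyJ and BXH19/TyJ, 12 in AKR/J, and 11 in both C57BL/6J and DBA/2J.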

How the data were processed

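FAIRE-seq libraries of 18 livers from 9 strains were made by the authors, who aligned reads of the inbred strains with bowtie1 to mm9 carrying the strain's variants, and those of BXH2/TyJ and BXH19/TyJ to mm9 and a C3H/HeJ version of it, kept reads with a single location, called peaks with F-seq (feature length 400 bp) and combined both animals of a strain with IDR. No version of F-seq or IDR was found in the study's methods. The deposited lists hold positions on mm9 and the F-seq signal of each peak, with no scaling between strains stated. The variable and common sites deposited by the authors, 2539 each, come from their DESeq analysis of reads in the 7 inbred strains. Reads and counts were not analysed here, and the lists do not give the depth behind each peak. The study does report the filtered reads of each library. A BXH19/TyJ library had the fewest, followed by both A/J libraries. How the read number of a library bears on the calls and summits was not tested.

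The 9 lists were merged (union of overlapping or adjoining intervals), sites were assigned to genes of GENCODE M1 (window 1 kb), and signal was ranked within each list, a site taking its highest peak. A strain without a peak entered the SD as 0. With 1 list per strain, no test was possible and counts stand beside the same counts over all features. Confidence intervals are exact at the 95% level. The members, lists and motifs were chosen with earlier results of these data known. Sites were named by a rule: the 5 with the highest mean percentile, the 5 with the largest SD, sites called in 1 strain, H1 and testis genes, and genes without a site. Other genes and the strain pattern of AKR/J and BXH19/TyJ were picked after their values were seen, as were summit positions. Of 14 variant histone genes listed, H1f0 was not found by name. Promoters and 170-mers were read from NCBIM37. Merging, overlaps and copy counts were checked on simulated intervals and a simulated sequence.

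Alternatives were the 20000 strongest peaks per list, other windows, overlaps, merges and backgrounds, and each strain left out. Tools were Python 3.11.15, numpy 2.4.6, pandas 2.3.3, scipy 1.17.1, numba 0.67.0 and matplotlib 3.10.9.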

Additional observations from a re-analysis of the deposited data

Results flagged for a closer look

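Over the 9 strain lists, 7 measures were checked for a strain far from its nearest neighbour. The gap had to take more of the whole range than the critical value of Dixon's test at the 95% level allows. For 1 measure fixed beforehand, chance gives that in about 1 of 20 groups. Summit positions were picked after their values were seen and several measures were checked, so that rate does not hold here. The flags are a description. In A/J the median histone summit, at 74 bp downstream of the start, lay far from the other 8 lists. The percent of histone summits upstream of the start, 33.3% in A/J, did so too, and so did the mean GC content of the A/J peaks, 60.1%. The DBA/2J list was the shortest by a wide gap, with 26769 peaks. The lists are from different strains and are not replicates of each other.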

How the results depend on the processing

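No paired analysis was possible because each list combines both animals of a strain, and for the same reason no animal could be left out. Of 194 values under alternatives, 180 stayed within 1.5 times a count or within the 95% counting limits of a median or share, 13 moved further and 1 reversed. All of these changes but those of the background came from keeping the 20000 strongest peaks per list, which by construction drops weak peaks. There, 10 histone sites were called in all 9 strains, 19 in A/J, 23 in BALB/cJ, 15 in C3H/HeJ, 16 in CBA/J and 19 in BXH2/TyJ. The median percentile was 37.6 in AKR/J, 39.7 in C57BL/6J and 31.4 in BXH19/TyJ, and 51.1 in CBA/J, a change of over 1.5 times that lay within the wide limits of that median, and the median A/J summit reversed to -37.0 bp. The pattern of AKR/J and BXH19/TyJ, an alternative chosen after seeing the data, was found at 13 sites there and at 16 or 17 under other windows and overlaps. The background share of genes with a site was 16.4% for single-exon genes, 52.5% for other genes between the first and last Hist1h gene, and, both chosen after seeing the data, 22.9% without Hist1h2al and 15.0% for single-exon genes without histones. With each strain left out in turn, 49 to 51 genes had a site, 49 to 52 sites remained and 16 to 19 were called in every remaining strain. The median SD was then 13.8 to 15.4, and 0 sites were in the variable or common list. Uncalled sites are below the caller's threshold, and how far below is limited by a depth that these lists do not give.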
